A study of Mus musculus with 32 samples.

Results

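Genes that carry non-canonical imprints in the mouse placenta were followed through oocyte development in the deposited peak lists of 2 histone marks. The group was 5 genes chosen by name, Sfmbt2, Jade1, Gab1, Smoc1 and Slc38a4, out of 21887 protein-coding genes of the annotation. The locus of each gene was its annotated span with 20 kb added on each side, and the measurement was the length of that locus lying under peaks. The genes were named without a threshold on any measured value, but with earlier results of these data known.

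The series holds 32 CUT&Tag samples of mouse oocytes taken from the ovary, in 16 groups of 2 samples, and 1 peak list was deposited per group. CUT&Tag uses an antibody to bring a transposase to chromatin with a given mark, here H3K27me3 (10 lists) or H2AK119ub (6 lists), and Drosophila S2 cells were added to every reaction as a spike-in. Wild-type (WT) oocytes were taken before birth at E18.5, on postnatal day 1 (P1), as non-growing oocytes on day 6 (P6) and as growing oocytes on day 7 (P7), and both marks were profiled at all 4 times. The 4 other genotypes all carried Ddx4-Cre, a recombinase active in germ cells. PRC2ctrl oocytes had EedF/+ and PRC2cKO oocytes EedF/-, where F is a floxed allele, and both were profiled at P6 for both marks. PRC1ctrl oocytes were Ring1-/- with Rnf2F/+, so that this control already lacked Ring1. The PRC1cKO genotype reads Ring1-/- with Ring1F/-, naming Ring1 where the control has Rnf2. Which gene was floxed there is thus unclear, and only the group names are used. The PRC1 groups were profiled for H3K27me3 at P6 and P7. P6 and P7 oocytes differ in age and in growth state at once, and these cannot be told apart.

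H2AK119ub is set by Polycomb repressive complex 1 (PRC1), whose catalytic subunits are encoded by Ring1 and Rnf2. H3K27me3 is set by Polycomb repressive complex 2 (PRC2), which needs Eed, and each complex can be recruited by the mark of the other. Canonical imprints rest on DNA methylation laid down in the germ line, whereas at non-canonical imprinted genes H3K27me3 inherited from the oocyte silences the maternal allele in the early embryo, and in the mouse the paternal expression that follows is kept mostly in the extraembryonic lineages that build the placenta. Sfmbt2 encodes a Polycomb-type protein with MBT domains that trophoblast needs, and one of its introns holds a large cluster of microRNA genes. Jade1 encodes a PHD-finger scaffold of the HBO1 histone acetyltransferase complex. Gab1 encodes an adaptor that relays receptor tyrosine kinase signals, among them the HGF signal in the placental labyrinth. Smoc1 encodes a secreted calcium-binding matrix protein that modulates BMP signalling. Slc38a4 encodes a system A amino acid transporter through which the placenta supplies the fetus.

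The 16 lists held 49615 to 83994 peaks and covered 244.2 to 728.3 Mb of the genome. Read depth per sample is unknown, and with 1 list per group no value below has a replicate check, an SD or a p-value. A list is made from many oocytes, so a mark carried by fewer cells and a weaker mark in each cell cannot be told apart. The lists measure no RNA, so the oocyte label was set only against the H3K27me3 at cell type markers. The median cover of 6 oocyte marker loci was 0% to 9.9% over the 10 lists, against 67% to 78.7% for 6 granulosa and stroma markers and 10.6% to 49.7% for 4 blood and endothelium markers. The last group differed between lists in the same direction as 4 of the 5 loci, going from 20.6% at P6 to 49.7% at P7 in WT and from 14.9% to 35.2% in PRC1ctrl, and stood at 13.8% and 12.1% in PRC1cKO. These 4 loci ranged from 12.8% to 80.9% at P7 in WT, and their part in the results was not tested. Single loci of the other sets lay far from their medians. An oocyte marker was at 44% at E18.5, and a granulosa and stroma marker at 0% in PRC1ctrl at P7. The deletions aimed at Ring1, Rnf2 and Eed cannot be checked in histone mark lists.

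In GRCm38 the genes lie on 5 chromosomes. Sfmbt2 spans chr2:10370440-10595253 on the plus strand, Jade1 spans chr3:41555734-41616864 on the plus strand, Gab1 spans chr8:80764431-80880519 on the minus strand, Slc38a4 spans chr15:96994816-97055956 on the minus strand and Smoc1 spans chr12:81026808-81186414. The loci were 264.8, 101.1, 156.1, 101.1 and 199.6 kb long in that order. Each locus could therefore only be compared with the others as a percentage of its length. The Sfmbt2 locus contains 72 microRNA genes, the Smoc1 locus reaches into Slc8a3, a sodium-calcium exchanger gene, and the Jade1 locus reaches into Sclt1, a centriole gene.

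The 250 bases before 1 annotated transcript start are shown for 4 genes, since the start was under H3K27me3 from E18.5 in some of them and not before P7 in Jade1. They are from RefSeq GRCm38.p6, read 5′ to 3′ on the strand of the gene, with every CG dinucleotide in capitals (the letters CG read the same on both strands). The windows are chr2:10370201-10370450 (plus strand) for Sfmbt2, chr3:41555484-41555733 (plus) for Jade1, chr8:80880520-80880769 (minus) for Gab1 and chr15:97055957-97056206 (minus) for Slc38a4. For Sfmbt2 the window precedes a transcript that starts at 10370451, just inside the gene span, and for the others it ends at the base before the gene.
Sfmbt2: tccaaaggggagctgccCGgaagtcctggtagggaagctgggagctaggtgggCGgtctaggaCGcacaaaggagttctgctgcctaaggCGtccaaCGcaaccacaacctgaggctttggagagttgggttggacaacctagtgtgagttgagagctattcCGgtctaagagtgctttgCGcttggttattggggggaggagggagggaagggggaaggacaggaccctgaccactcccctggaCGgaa
Jade1: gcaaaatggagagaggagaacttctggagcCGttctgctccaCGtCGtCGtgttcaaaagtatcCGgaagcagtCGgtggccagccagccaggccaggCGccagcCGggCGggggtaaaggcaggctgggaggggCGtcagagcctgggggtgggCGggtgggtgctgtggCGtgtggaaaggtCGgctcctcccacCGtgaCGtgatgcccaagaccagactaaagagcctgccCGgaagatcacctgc
Gab1: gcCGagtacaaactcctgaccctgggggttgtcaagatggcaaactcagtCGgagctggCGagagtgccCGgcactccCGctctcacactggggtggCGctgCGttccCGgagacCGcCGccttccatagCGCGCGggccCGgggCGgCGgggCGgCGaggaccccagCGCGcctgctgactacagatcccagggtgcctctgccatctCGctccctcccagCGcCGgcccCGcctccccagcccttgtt
Slc38a4: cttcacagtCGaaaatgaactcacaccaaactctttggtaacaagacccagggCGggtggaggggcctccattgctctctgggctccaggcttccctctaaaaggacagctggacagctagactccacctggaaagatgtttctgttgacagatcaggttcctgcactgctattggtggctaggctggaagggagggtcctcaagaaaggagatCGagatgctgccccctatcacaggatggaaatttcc

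The 4 windows ran from rich to poor in CG. Gab1 had 24 CG, and 12% of the 32851 windows of this length in the RefSeq table had as many or more. Jade1 had 16, a number reached by 25.4% of windows. Sfmbt2 had 8, reached by 43%. Slc38a4 had 3, reached by 71%, against a median of 6 over all windows. The RefSeq table holds further starts of these genes, among them 1 of Sfmbt2 with 15 CG and 3 of Jade1 with 6 to 35, so the count belongs to the window shown and not to the gene.

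H3K27me3 spread over 4 of the 5 loci at the step from non-growing P6 to growing P7 oocytes. The covered length of Slc38a4 rose only at the step before, from P1 to P6. At E18.5 the 5 loci were covered over 0% (Gab1 and Jade1) to 13.9% (Slc38a4), with a median of 1.1% against 11.9% for all protein-coding genes. At P1 the median of the 5 was 2% against 12.7% for all genes. At P6 it was 11.4% against 14.3%. At P7 it was 40.5% against 19.2%, with the lowest value 22.4% at Gab1 and the highest 60.9% at Smoc1. The median of the 5 thus lay below that of all genes until P6 and above it at P7. The order at P7 was Smoc1 (60.9%), Sfmbt2 (46.1%), Slc38a4 (40.5%), Jade1 (37.6%) and Gab1 (22.4%), and without replicate lists it is not known which neighbours in that order differ beyond error.

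**Figure D1:**
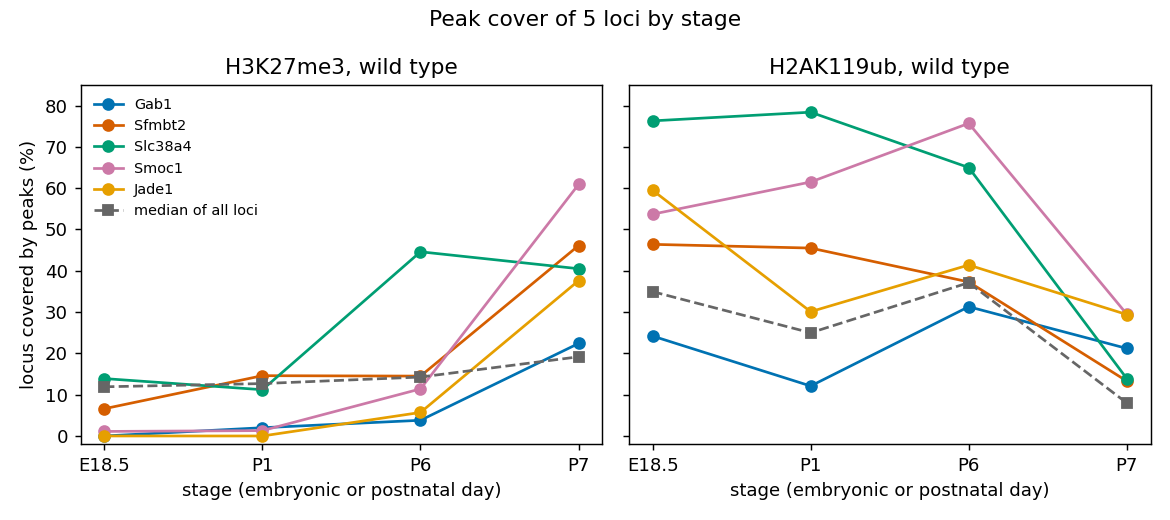
Share of each locus (gene and 20 kb on each side) under peaks, in percent, by stage in WT oocytes, for H3K27me3 (left) and H2AK119ub (right), with 1 pooled list per point and the median of all protein-coding loci dashed. H3K27me3 climbs to 22.4% to 60.9% at P7, whereas H2AK119ub is at 12.1% to 78.4% in the 3 earlier lists and at 13.3% to 29.5% at P7.

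A locus was called gained or lost when its covered length, with 1 kb added, changed at least 2-fold between 2 lists. From E18.5 to P1, Gab1 and Sfmbt2 gained H3K27me3, which makes 2 of 5 where 5.09% of all genes gained it, and none of the 5 lost it where 5.98% of all genes did. From P1 to P6, Slc38a4, Smoc1 and Jade1 gained, 3 of 5 against 11.1% of all genes, and none lost it, against 6.35%. From P6 to P7, Sfmbt2, Jade1, Gab1 and Smoc1 gained, 4 of 5 against 21.2% of all genes, and none lost it, against 10.9%. The median log2 change over the 5 genes was 0.18, 1.90 and 2.37 at the 3 steps, and over all genes it was 0, 0 and 0.08. Every gene had therefore gained the mark at 1 step at least, and Gab1, Sfmbt2, Smoc1 and Jade1 at 2. The gain of Gab1 from E18.5 to P1 rested on 1 peak of 3.14 kb and was not called when only the upper 50% of peaks of each list by summed signal were kept or when both lists were trimmed to the same covered length. Under that trimming 1 of the 5 was lost at this step, and the share of all genes was not computed. The call from P1 to P6 was not made for Slc38a4 with flanks of 50 kb (0.91) or for Jade1 with the gene spans alone (0), nor that from P6 to P7 for Gab1 with the upper 50% of peaks (0.84).

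The start of Sfmbt2 was marked from E18.5 on and in every list. Its covered length was 17.5 kb at E18.5, 38.7 kb at P1, 38.4 kb at P6 and 122 kb at P7, so that it was level between P1 and P6 and rose by 1.64 on the log2 scale at P7. A stretch of 7.22 kb, from 1 kb before the start to 6.22 kb into the gene, lay under an H3K27me3 peak in all 10 lists, as did 0.84 kb in the gene at 37.4 kb from the start. No other member had its own start marked in all 10. The peak over the start was 9.48 kb wide at E18.5 and 27.6 kb wide at P7, when it reached back to 18.6 kb before the gene. In the body of the gene, beyond the first 2.5 kb, cover went from 5.3% at E18.5 to 12% at P6 and 41.8% at P7. The peak with the highest summed signal in the Sfmbt2 locus ranked between the 89.9th and the 94.8th percentile of its own list in the 10 lists.

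The microRNA cluster inside Sfmbt2 lay within a longer stretch of the gene without H3K27me3 peaks. That stretch ran from 61 to 182.7 kb after the start at E18.5 and from 87.4 to 151.7 kb in WT at P7. The 72 microRNA genes occupy 51.6 kb, from 96.2 to 147.8 kb after the start of Sfmbt2. No H3K27me3 peak of any of the 10 lists touched that interval, while the rest of the gene was covered over 5.1% to 55%. H2AK119ub covered 16.7% of the interval at E18.5 and 9.4% at P1, over 13 and 10 of the 72 genes, and 0% in the other 4 lists, where the rest of the gene was covered over 16.4% to 53.7%. These microRNA genes are near-identical copies of a few families. How reads with several matches were treated is not given in the sources used here, and its part in the empty interval was not tested.

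The span of Jade1 was the last of the 5 to be marked. It had no H3K27me3 peak at E18.5 or P1, 5.78 kb at P6 and 38.1 kb at P7, a rise of 2.53 on the log2 scale in the last step. The P6 peak lay 6.88 to 12.7 kb before the start and left the gene itself uncovered. The bases from 9.22 to 12.2 kb before the start were under a peak in 7 of the 10 lists, more lists than any other part of the locus. At P7 a peak of 17.2 kb ran from 6.75 kb before the start to 10.5 kb into the gene, so that the 5 kb around the start went from 0% at P6 to 100%. The gene span itself carried 0 kb at P6 and 19.9 kb at P7. In none of the 10 lists did H3K27me3 reach the 20 kb after the end of the gene, where Sclt1 lies.

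Gab1 was marked by 1 peak at its start at P1 and P6 in WT. It had no peak at E18.5, 3.14 kb at P1, 5.93 kb at P6 and 34.9 kb at P7, a rise of 2.37 on the log2 scale in the last step. The stretch from 0.48 kb before the start to 2.06 kb into the gene lay under a peak in 9 of the 10 lists, the exception being E18.5. At P7 there were 8 peaks of 2.64 to 7.68 kb in the locus in place of 1. The stretch from 20 to 2.5 kb before the start went from 0% at P6 to 66.8% at P7, and the body of the gene from 2.6% to 13.3%. New peaks thus lay both before the start and along the gene, whose locus had the lowest share under H3K27me3 of the 5 at P7.

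Smoc1 changed most in length. Its locus carried 2.21 kb at E18.5, 2.63 kb at P1, 22.7 kb at P6 and 122 kb at P7, a rise of 2.70 on the log2 scale from P1 to P6 and of 2.37 from P6 to P7. The early value was 1 peak that did not lie on Smoc1. The 2.13 kb from chr12:81198249-81200383, inside the neighbouring Slc8a3, were covered in all 10 lists, and the E18.5 and P1 peaks lay there. The span of Smoc1 alone carried 0 kb at E18.5 and P1, 5.75 kb at P6 and 87.6 kb at P7. At P6 the 5 kb around the higher-coordinate end of the gene were covered over 100% and those around the lower-coordinate end over 0%. At P7 the values were 100% and 95%, and 53.6% of the body was covered, where it had been 2.1%.

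Slc38a4 was the gene whose mark moved. Its covered length was 14.1 kb at E18.5, 11.3 kb at P1, 45.1 kb at P6 and 41.0 kb at P7, so that it gained from P1 to P6 by 1.90 on the log2 scale and differed by -0.13 from P6 to P7. The steady total at the last step hid an exchange of position. A domain over the start, 11.4 kb wide at E18.5 and 19.0 kb at P6, was absent at P7. The 5 kb around the start went from 100% at P6 to 0% at P7, and the stretch from 20 to 2.5 kb before the start from 58% to 0%. The body went from 41.5% to 61.4% over the same step. In kb, 20.4 were covered at both P6 and P7, 24.7 were lost and 20.6 were new. At the other 4 loci between 0 kb (Smoc1) and 3.07 kb (Gab1) were lost. The stretch from 7.88 kb before the start to 2.87 kb into the gene lay under a peak in 8 of 10 lists, all except WT P7 and PRC1ctrl P7. It also holds the annotated gene model Gm32840.

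**Figure D2:**
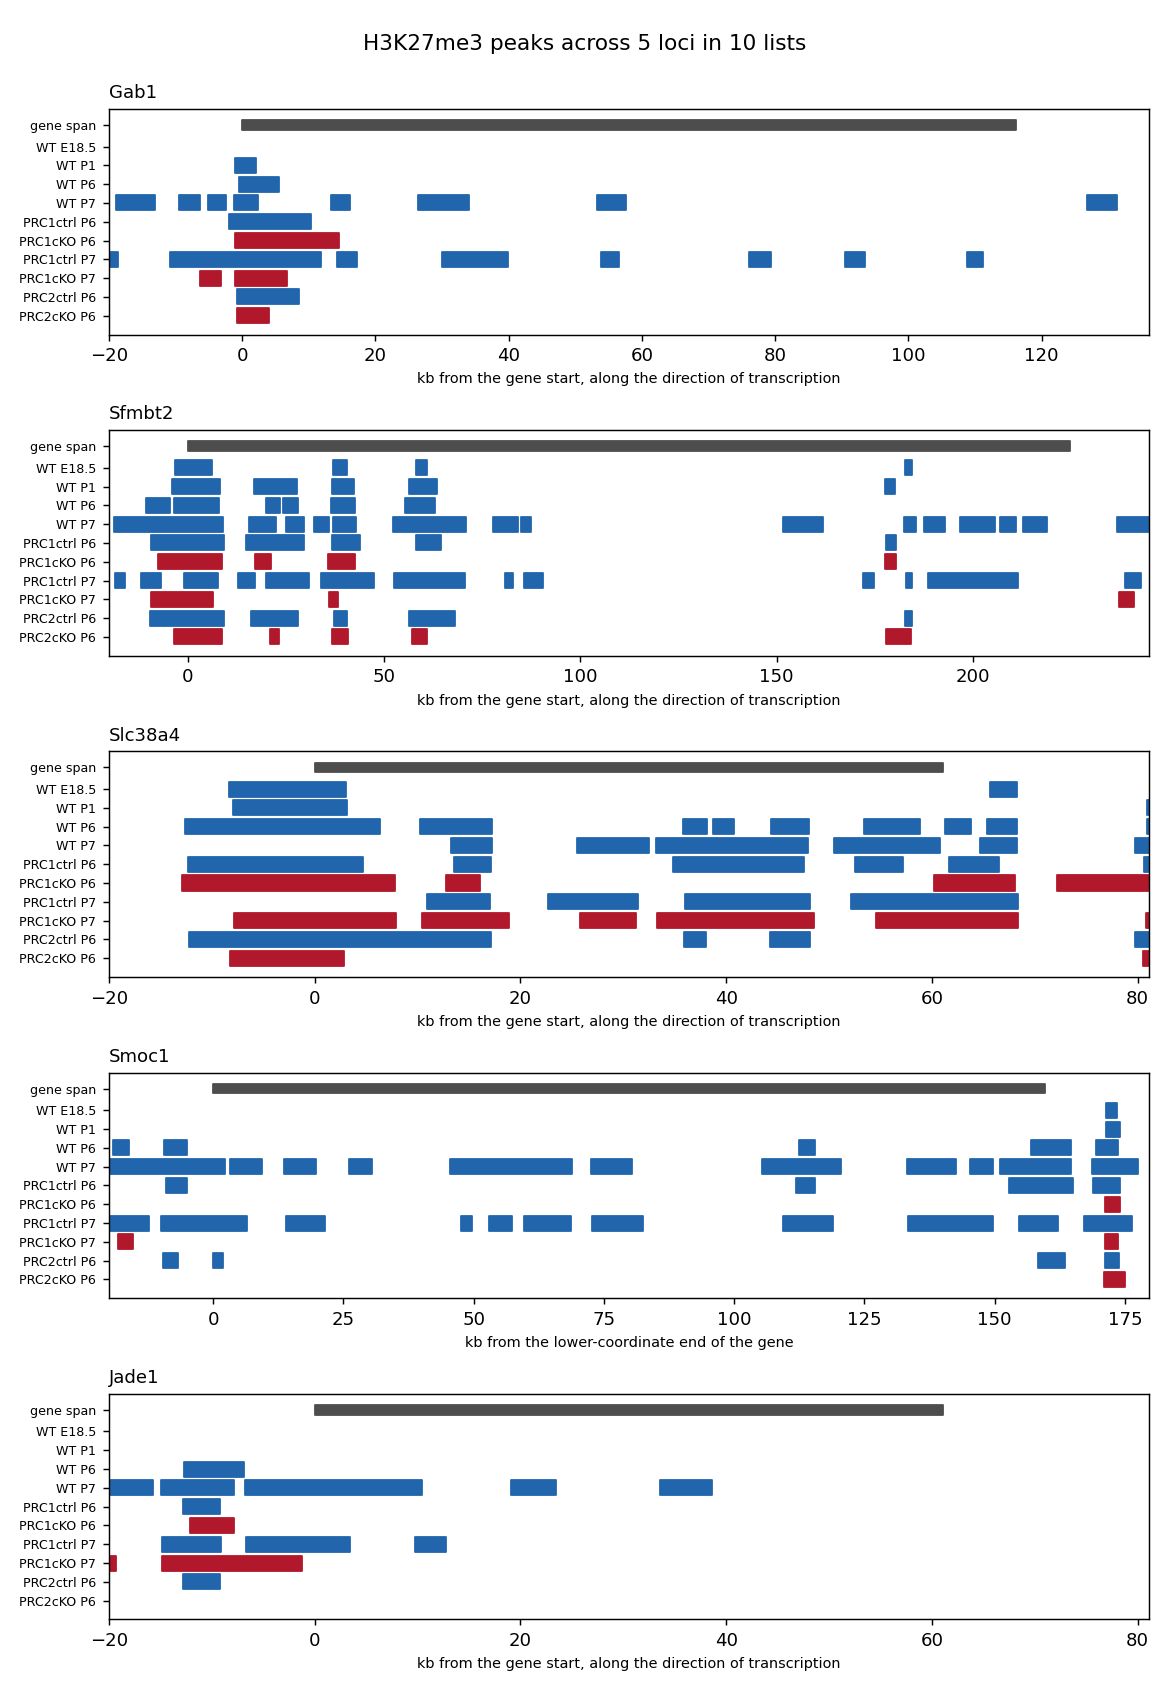
H3K27me3 peaks (bars) in 10 pooled lists along the 5 loci, in kb from the start of the gene in the direction of transcription, or for Smoc1 from its lower-coordinate end, with knockout lists in red and all others in blue and the gene span in grey. Sfmbt2, Jade1, Gab1 and Smoc1 are covered most in the WT P7 and PRC1ctrl P7 lists, the Sfmbt2 start is marked in all 10 lists, and the Slc38a4 start is empty in WT P7 and PRC1ctrl P7 only.

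The gene starts thus fell into different kinds. Sfmbt2 and Slc38a4 were covered over 100% of the 5 kb around the start from E18.5 to P6. Gab1 was covered there over 62.9% at P1, 59.5% at P6 and 74% at P7. Jade1 was covered there at P7 for the first time. For Smoc1 the ends are described, since which of them is the start is not given in the sources used here. Cover in WT began at P6 at its higher-coordinate end and at P7 at its lower-coordinate end.

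**Figure D3:**
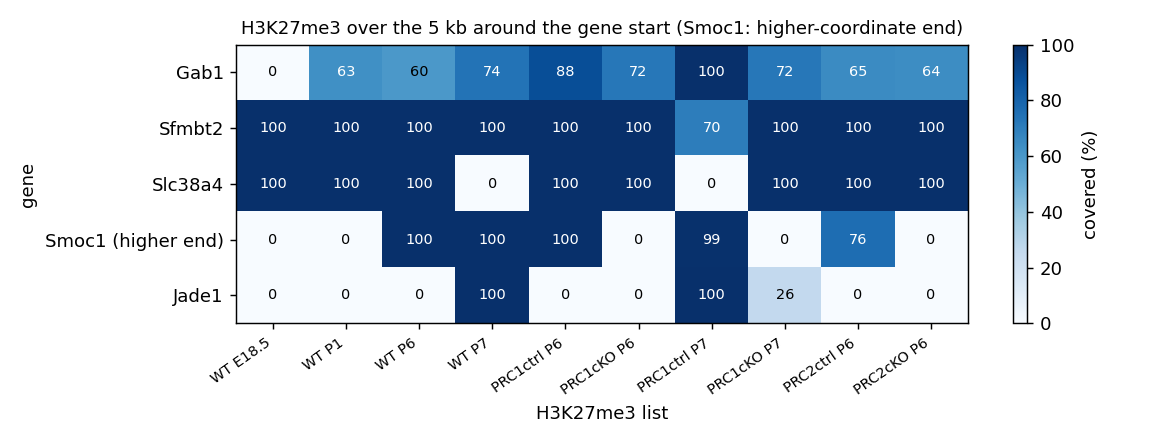
Share of the 5 kb around each gene start (for Smoc1 around its higher-coordinate end) under H3K27me3 peaks, in percent, in 10 pooled lists, with darker blue for more cover. Sfmbt2 is at 70% or more in all 10 lists. Slc38a4 is at 0% in the WT P7 and PRC1ctrl P7 lists and at 100% in the other 8. Smoc1 is at 0% in all 3 knockout lists and also in the WT E18.5 and WT P1 lists. The lower-coordinate end of Smoc1, not shown, is at 0% at WT P6 and at 95% at WT P7.

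H2AK119ub was already broad at the 5 loci before birth, when H3K27me3 was sparse. At E18.5 it covered 24.2% (Gab1) to 76.3% (Slc38a4) of the loci, with a median of 53.7% against 34.95% for all genes, and every locus had peaks in all 6 lists. Sfmbt2 carried 123, 120.5, 98.8 and 35.2 kb of H2AK119ub at E18.5, P1, P6 and P7. Jade1 carried 60.2, 30.45, 41.9 and 29.7 kb. Gab1 carried 37.7, 18.9, 48.85 and 33.1 kb. Smoc1 carried 107, 123, 151 and 58.9 kb, with its highest value at P6, when 75.7% of the locus was covered. Slc38a4 carried 77.1, 79.3, 65.7 and 14.0 kb. All 5 genes were lower at P7 than at P6, and lower than at E18.5.

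From E18.5 to P1 none of the 5 gained H2AK119ub, against 4.88% of all genes, and none lost it, against 16.6%, although Gab1 and Jade1 both fell by 0.96 on the log2 scale, just short of the 2-fold limit. From P1 to P6 Gab1 gained it, 1 of 5 against 18.9% of all genes, and none lost it, against 5.51%. Gab1 was not called at this step with flanks of 50 kb (0.95) or with lists trimmed to equal covered length (0.88). From P6 to P7 Sfmbt2, Slc38a4 and Smoc1 lost it, 3 of 5 against 58.7% of all genes, and none gained it, against 3.5%. The losses at P7 were near the share of all genes. The median log2 change of the 5 was -1.35 and that of all genes -1.27. The P7 list covered 244.2 Mb and the P6 list 728.3 Mb. With both lists trimmed to the same covered length by leaving out peaks of lowest summed signal, 4 of the 5 were gained and 0 lost. The share of all genes was not computed under this setting. Smoc1 kept its sign (-0.63). At the other 4 loci the trim left no H2AK119ub peak of the P6 list. Their sign under this setting was set by the trim and gives no direction of the step.

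At 4 of the 5 loci most of the H3K27me3 that was new at P7 lay on bases that carried H2AK119ub at P6. At Smoc1, 95.7% of the 98.96 kb that were new at P7 had been under an H2AK119ub peak at P6, and of the bases with no H3K27me3 at either time 43.3% had been. At Jade1 the shares were 80.5% of 33.2 kb new and 18.6% of the bases that stayed without. At Slc38a4 they were 73.2% and 38.9%. At Sfmbt2 the shares were 64.5% of 86.1 kb and 11.4%. At Gab1 they were 46.3% of 32.1 kb and 26.4%, the closest pair of the 5. At each of the 5 loci the new bases carried more H2AK119ub at P6 than the bases left out. With H2AK119ub of P1 in place of P6 the shares were nearly level at Jade1 (29.7% and 27.6%) and Gab1 (11.8% and 10.4%), and with that of P7 they were 28.1% and 29% at Jade1. Over all loci, 69.2% of new bases and 16.1% of bases left without H3K27me3 had been under H2AK119ub, so that the 5 genes shared the direction seen over all loci. The sizes differed, with a closer pair at Gab1 and a higher share in the bases left without at Smoc1 (43.3%) and Slc38a4 (38.9%). These are descriptions of single pooled lists, and the bases of a locus are not independent.

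**Figure D4:**
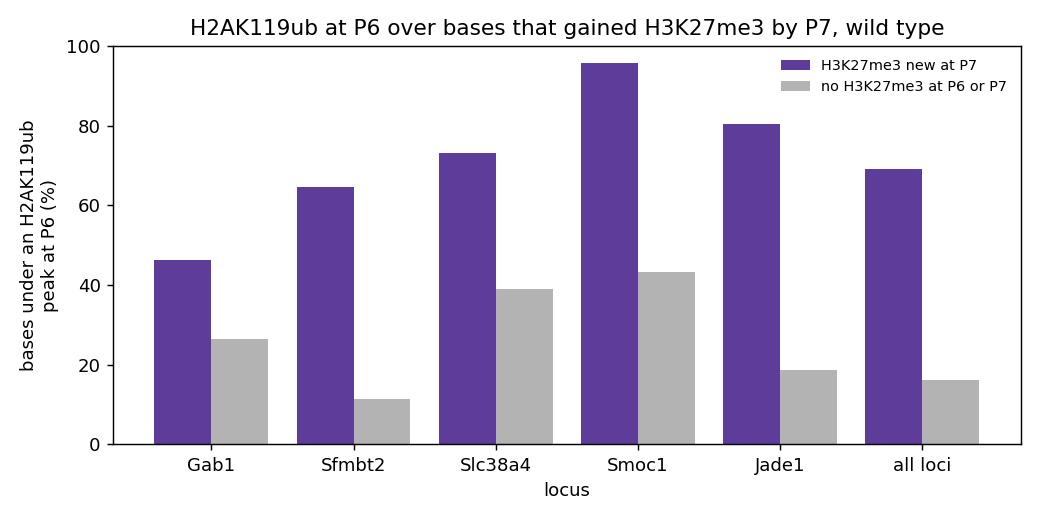
Share of bases under an H2AK119ub peak at P6 in WT oocytes, in percent, for bases that H3K27me3 covered at P7 but not at P6 (purple) and bases it covered at neither time (grey), at 5 loci and over all protein-coding loci. The purple bar is the taller at all 5 loci, from 46.3% at Gab1 to 95.7% at Smoc1, and over all loci it is at 69.2%.

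The overlap of both marks was read at each stage. At E18.5 all H3K27me3 of the Slc38a4 and Smoc1 loci (100%) and 78.4% of that of Sfmbt2 lay under H2AK119ub. This was 18.3%, 2.1% and 11.2% of their H2AK119ub. At Smoc1 it was the 1 peak over Slc8a3, with 0 kb on the span of Smoc1. H2AK119ub covered 76.3%, 53.7% and 46.4% of these loci at E18.5, and how much overlap such cover gives by itself was not tested. H3K27me3 was then the smaller of both marks and lay mostly within the other. At P6, the last list before growth, the share of H3K27me3 under H2AK119ub was 100% at Smoc1, 81.7% at Slc38a4, 71% at Sfmbt2, 61% at Jade1 and 46.9% at Gab1. The share of H2AK119ub under H3K27me3 was 56.1% at Slc38a4 and 5.7% to 27.6% at the other 4. At P7 the share of H3K27me3 under H2AK119ub was 23.1% at Slc38a4, 27% at Sfmbt2, 28.2% at Jade1, 41.4% at Smoc1 and 46.2% at Gab1. The share of H2AK119ub under H3K27me3 was then 93.7% at Sfmbt2, 85.6% at Smoc1, 67.6% at Slc38a4, 48.8% at Gab1 and 36.2% at Jade1. At Sfmbt2 and Smoc1 the H2AK119ub left at P7 thus lay mostly within H3K27me3. The first of these shares was level at Gab1 from P6 to P7, and the H2AK119ub list covered less of the genome at P7, as given above. The part of the locus under both marks had a median over the 5 of 1.1% at E18.5, 2% at P1, 10.3% at P6 and 10.6% at P7.

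In the PRC1 groups H3K27me3 was compared at P6 and P7, and the step between the days within each group. These comparisons share lists, so they are given side by side and not as support for each other. At P6, Smoc1 carried 25.1 kb in PRC1ctrl and 2.90 kb in PRC1cKO, a difference of -2.74 on the log2 scale. The other 4 were not called, with 49.9 and 30.05 kb at Sfmbt2, 3.60 and 4.32 kb at Jade1, 12.2 and 15.6 kb at Gab1 and 43.6 and 40.9 kb at Slc38a4. Smoc1 was thus lost, 1 of 5 where 7.81% of all genes lost H3K27me3, and none of the 5 gained, against 7.96%. The median log2 difference was -0.09 for the 5 and 0 for all genes. With the gene spans alone, without flanks, Slc38a4 (25.8 kb in PRC1ctrl and 12.0 kb in PRC1cKO) was lost as well, which made 2 of 5. The share of all genes was not computed for the gene spans.

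At P7 the difference between the PRC1 groups was larger. Smoc1 carried 99.4 kb in PRC1ctrl and 5.25 kb in PRC1cKO, a difference of -4.01 on the log2 scale that put it at the 0.5th percentile of all genes. Sfmbt2 carried 101 and 21.9 kb (-2.16). Gab1 carried 48.3 and 10.9 kb (-2.05). These 3 genes were lost, 3 of 5 where 16.8% of all genes were, and none gained, against 13.4%. Jade1 carried 18.9 and 14.3 kb (-0.38), and Slc38a4 carried 43.3 and 59.2 kb (0.44), and neither was called. The median was -2.05 for the 5 and 0 for all genes. With the gene spans alone Jade1 (6.48 and 0 kb) was lost as well, which made 4 of 5, again without a share of all genes. The 4 blood and endothelium marker loci had medians of 35.2% in PRC1ctrl and 12.1% in PRC1cKO, and their part in this difference was not tested. The PRC1cKO list covered 463.3 Mb in all and the PRC1ctrl list 491.6 Mb.

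At Sfmbt2 and Gab1 the starts stayed marked in PRC1cKO at P7. At Sfmbt2 the 5 kb around the start were covered over 100% in PRC1cKO and 70% in PRC1ctrl, whereas the body of the gene carried 2.8% and 38.8%. At Gab1 the start was covered over 72.4% in PRC1cKO and 100% in PRC1ctrl, and the body over 3.7% and 29.7%. In both genes the peak at the start was kept and the peaks along the gene were mostly missing. The span of Smoc1 carried 0 kb in PRC1cKO at P6 and at P7, against 10.5 and 70.2 kb in PRC1ctrl. The 2.41 kb that lay over Slc8a3 and a peak of 2.84 kb below the gene made up the whole remaining cover of that locus at P7. At Jade1 the PRC1cKO list had a peak of 13.6 kb that ended 1.21 kb before the start, and the gene span carried 0 kb, against 6.48 kb in PRC1ctrl. Jade1 was therefore marked before its start in both groups and in its span in PRC1ctrl only.

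The start of Slc38a4 differed between the PRC1 groups at P7. It was covered over 0% in WT and PRC1ctrl and over 100% in PRC1cKO, by a peak of 15.8 kb that ran from 7.88 kb before to 7.91 kb after the start. The body was covered over 61.4% in PRC1ctrl and 70.2% in PRC1cKO. Of the PRC1ctrl P7 bases, 86.8% were also covered in PRC1cKO, the highest share of the 5, against 59.2% at Jade1, 22.6% at Gab1, 14.3% at Sfmbt2 and 5.3% at Smoc1. Over all loci the share was 59.9%. Another 21.6 kb of the Slc38a4 locus were covered in PRC1cKO and not in PRC1ctrl.

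The step from P6 to P7 within each group set the same values in order of time. In PRC1ctrl, Gab1 went from 12.2 to 48.3 kb (1.90), Sfmbt2 from 49.9 to 101 kb (1.01), Smoc1 from 25.1 to 99.4 kb (1.94) and Jade1 from 3.60 to 18.9 kb (2.11). These 4 of 5 gained, where 15.5% of all genes did, and none lost, against 17%. The same 4 genes gained in WT, in a separate pair of lists. Sfmbt2 was not called in PRC1ctrl with the upper 50% of peaks (0.82). Of the 45 WT P7 peaks at the 5 loci 16 touched a WT P6 peak, and of the 39 PRC1ctrl P7 peaks 14 touched a PRC1cKO P7 peak. In PRC1cKO only Jade1 gained, from 4.32 to 14.3 kb (1.52), 1 of 5 where 10.6% of all genes did, and none lost, against 15%. Gab1 went from 15.6 to 10.9 kb (-0.48), Sfmbt2 from 30.05 to 21.9 kb (-0.44), Smoc1 from 2.90 to 5.25 kb (0.68) and Slc38a4 from 40.9 to 59.2 kb (0.52). The gain of Jade1 in PRC1cKO lay wholly before the gene, and without flanks it was 0. In the gene spans alone Gab1 (14.5 to 6.71 kb) and Sfmbt2 (22.4 to 8.82 kb) were lost in PRC1cKO, and Slc38a4 (12.0 to 43.7 kb) gained.

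**Figure D5:**
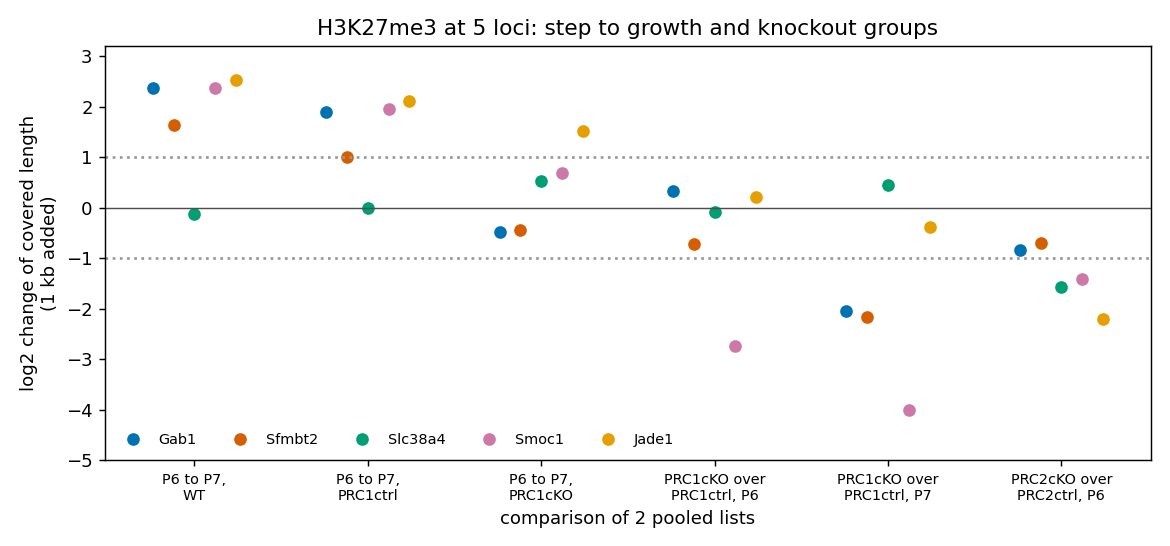
Log2 change of the H3K27me3-covered length of 5 loci (1 kb added, vertical axis) in 6 comparisons of pooled lists, with dotted lines at the 2-fold limits of 1 and -1. Sfmbt2, Gab1, Smoc1 and Jade1 lie at 1.01 or above for the P6 to P7 step in WT and PRC1ctrl, and in PRC1cKO only Jade1 does, at 1.52.

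In PRC2cKO oocytes at P6 all 5 loci carried less H3K27me3 than in PRC2ctrl. Jade1 had 3.57 kb in PRC2ctrl and 0 kb in PRC2cKO, its only peak being absent. Slc38a4 had 36.8 and 11.7 kb (-1.57). Smoc1 had 12.8 and 4.15 kb (-1.42). These 3 of 5 were lost, where 21% of all genes were, and none gained, against 3.1%. Gab1 had 9.26 and 4.71 kb (-0.84) and Sfmbt2 had 47.3 and 28.7 kb (-0.70), and neither was called. The median log2 difference was -1.42 for the 5 and -0.17 for all genes. The PRC2cKO list covered 428.6 Mb and the PRC2ctrl list 558.4 Mb, and with both trimmed to the same length 1 of the 5 was lost and 1 gained. Smoc1 then had a difference of 2.36, opposite in sign, since the trim left its locus no peak in PRC2ctrl. With the upper 50% of peaks by summed signal 2 of the 5 were lost, and for neither setting was the share of all genes computed. The calls of Smoc1 and Jade1 were not made then, whereas Gab1 kept its peak in PRC2ctrl only. Nor was the call of Jade1 made with the gene spans alone, or that of Slc38a4 with flanks of 50 kb (-0.74).

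In PRC2cKO the starts of 3 genes stayed marked. The 5 kb around the start were covered over 100% at Sfmbt2 and Slc38a4 and over 64.3% at Gab1, against 100%, 100% and 64.9% in PRC2ctrl. The body of Slc38a4 went from 35.2% in PRC2ctrl to 0.6% in PRC2cKO. At Smoc1 the gene span carried 3.19 kb in PRC2ctrl and 0 kb in PRC2cKO, and the peak over Slc8a3 was the only one left. The 5 kb around its lower-coordinate and higher-coordinate ends had 1.99 and 3.82 kb in PRC2ctrl and none in PRC2cKO, and its body had none in either.

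H2AK119ub was also lower in PRC2cKO than in PRC2ctrl at all 5 loci, but by less than 2-fold. Sfmbt2 had 98.9 and 67.7 kb (-0.54), Jade1 42.0 and 26.2 kb (-0.66), Gab1 39.7 and 28.35 kb (-0.47), Smoc1 101 and 80.6 kb (-0.32) and Slc38a4 46.7 and 32.9 kb (-0.49). None of the 5 was lost, against 10.3% of all genes, and none gained, against 4.07%. The median was -0.49 for the 5 and -0.12 for all genes. At Gab1 the lower value came from the flank, since the gene span had 19.7 kb in PRC2ctrl and 24.2 kb in PRC2cKO. These lists covered 398.2 Mb in PRC2cKO and 498.4 Mb in PRC2ctrl.

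Lists of control genotypes at the same stage and mark were set against each other to see how far 2 control lists differ. Over 5 such comparisons and 5 genes, 0 of 25 were called in either direction. Between WT and PRC1ctrl, 14% of all genes were called at P6 and 16.8% at P7 for H3K27me3. Between WT and PRC2ctrl at P6, 9.66% were called for H3K27me3 and 22.8% for H2AK119ub, and between PRC1ctrl and PRC2ctrl 14.4% were called for H3K27me3. The largest differences at the 5 genes were -0.97 for Jade1 between WT and PRC1ctrl at P7 (38.1 and 18.9 kb), 0.93 for Gab1 between them at P6 (5.93 and 12.2 kb) and -0.92 for Smoc1 between PRC1ctrl and PRC2ctrl at P6 (25.1 and 12.8 kb). Differences of that size between lists of the controls lie just short of the 2-fold limit. These controls differ in genotype, so their differences are not replicate error. With the gene spans alone 4 of 25 were called, with lists trimmed to equal covered length 4 of 25, and with the upper 50% of peaks 5 of 25. The shares of all genes were not computed for these settings.

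Another 17 candidates for H3K27me3-dependent imprinting were read in the same way, as a list chosen with results of these data known. From P6 to P7 in WT 6 of the 17 gained H3K27me3, against 21.2% of all genes, and 0 lost it, against 10.9%. Etv6 (a transcriptional repressor), Rbms1, E2f3, Slc38a1 (an amino acid transporter) and Enc1 changed most in length. Etv6 went from 13.7 to 234 kb. From E18.5 to P1 1 of 17 gained (Bmp7), against 5.09% of all genes, and 1 lost (Etv6), against 5.98%. From P1 to P6 4 gained (Bmp7, Etv6, Enc1 and Rbms1), against 11.1%, and 0 lost, against 6.35%. In PRC1cKO against PRC1ctrl 6 of 17 were lost at P6 (with Etv6, Epas1, Bmp7, Enc1 and Rbms1 the 5 largest), against 7.81% of all genes. At P7 6 were lost (with Etv6, Bmp7, Rbms1, Slc38a1 and E2f3 the largest), against 16.8%. On both days 0 gained, against 7.96% at P6 and 13.4% at P7. Of the 6 lost at P6, Etv6 (13.7 kb in WT and 44.8 kb in PRC1ctrl), Rbms1 (5.20 and 12.9 kb) and E2f3 (0 and 2.33 kb) were also called between these controls at P6. At P7 none of the 17 was called between WT and PRC1ctrl. Etv6 went from 182 kb in PRC1ctrl to 0 kb in PRC1cKO at P7. In PRC2cKO 4 of 17 were lost (Bmp7, Etv6, Enc1 and Rbms1), near the share of all genes (21%), and 0 gained, against 3.1%. From P6 to P7, 4 gained in PRC1ctrl, against 15.5% of all genes, and 0 were lost, against 17%. In PRC1cKO 3 gained, against 10.6%, and 1 was lost, against 15%. For H2AK119ub in WT, 1 of 17 gained from P1 to P6 (Rbms1), against 18.9% of all genes. From P6 to P7, 7 were lost, where 58.7% of all genes were. The 17 had more H3K27me3 from the outset than the 5, with a median of 43.5% of the locus at E18.5 and 83.5% at P7.

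Imprinted genes whose maternal allele is DNA-methylated in the oocyte, 16 in all, changed in both directions at growth. From P6 to P7 in WT 4 lost H3K27me3, against 10.9% of all genes, and 3 gained it, against 21.2%. The median log2 change was -0.43. In PRC1ctrl 9 lost it, against 17%, and 3 gained it, against 15.5% (median -1.19). In PRC1cKO 4 lost it, against 15%, and 0 gained it, against 10.6% (median -0.53). At P7, 4 carried more in PRC1cKO than in PRC1ctrl (Snrpn, Ndn, Grb10 and Mest), where 13.4% of all genes did. Another 3 carried less, where 16.8% did, and the median was 0. Of the 4 that carried more, Mest (11.3 kb in WT and 1.84 kb in PRC1ctrl) and Ndn (11.4 and 2.60 kb) were also called between the controls at P7. Mest had 13.96 kb in PRC1cKO. Snrpn had 9.58 kb in PRC1ctrl and 35.2 kb in PRC1cKO. From P6 to P7 in WT, 12 of the 16 lost H2AK119ub, where 58.7% of all genes did. With lists trimmed to equal covered length 4 of the 5 non-canonical genes gained it at that step, where the trim left them no P6 peak. The 16 were not read under that setting.

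The gene most like each member over the 16 lists was found as the one with the smallest root mean square difference of covered percent, among genes of similar locus length (within 1.5-fold). For Sfmbt2 these were Adgrl2 (4.14 percentage points) and Ppp1r9a (6.19). For Smoc1 they were Epb41l4a (5.28) and Dapk1 (6.26). For Gab1 they were Stk33 (4.85) and Ift81 (5.58), and for Jade1 Chmp4b (6.16) and Gm960 (6.47). Slc38a4 had no gene as close, with Lhcgr at 8.69 and Ankrd55 at 11.8. The median over all candidates was 16.0 points for Gab1, 22.8 for Sfmbt2, 34.2 for Slc38a4, 32.4 for Smoc1 and 22.55 for Jade1.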

How the data were processed

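H3K27me3 and H2AK119ub were profiled by CUT&Tag in 32 samples, and the authors deposited 1 headerless peak list for each of 16 groups of 2 samples. Per the submitters' processing notes, the tools were Bowtie2, SAMtools, deepTools, Trim Galore (0.6.10) and Picard (3.0.0), listed with no roles, and the builds dm6, mm10 and GRCm38. Neither the peak caller and its threshold, nor the use of the spike-in, nor the way 2 samples became 1 list is given in the sources used here. Judged by its values, column 4 of the deposited lists is the signal summed over a peak, and column 5 the highest signal in it. Both are the authors' own and were used only to describe or filter peaks within a list. A list that called more of the genome covers more of a locus, whatever the cause.

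Genes were those of RefSeq GRCm38.p6, of the same build. Covered length per locus was computed with Python 3.11.15, numpy 2.4.6 and pandas 2.3.3, for all 21887 genes. A call was a 2-fold change after adding 1 kb, with no test, since there is 1 list per group. Smoc1 has no strand in the tables, so its ends were used. The code that measures cover and counts calls was tested on simulated peaks, which says nothing about the error of a single pooled list. All 5 members are named, with up to 5 genes of each further list per comparison by change of covered length, and the 2 most similar genes of each member. The members and lists were chosen with earlier results of these data known. The measures of the microRNA cluster, of new bases, of bases shared by lists and of gene spans were added after the data were seen. The alternatives tried were flanks of 0 and 50 kb, folds of 1.5 and 3, 0.5 kb added, the upper 50% of peaks by summed signal, and both lists trimmed to the same covered length by leaving out the peaks of lowest summed signal.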

Additional observations from a re-analysis of the deposited data

Results flagged for a closer look

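For 2 genes H3K27me3 was gained from P6 to P7 in PRC1ctrl, whereas in PRC1cKO the covered length was lower at P7 by less than the 2-fold limit. Gab1 gained H3K27me3 in PRC1ctrl (1.90 on the log2 scale) and not in PRC1cKO (-0.48), a difference of -2.38. Sfmbt2 gained it in PRC1ctrl (1.01) and not in PRC1cKO (-0.44), a difference of -1.45. Each value comes from 1 pooled list per group and day, so the difference itself was not tested.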

How the results depend on the processing

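Of the alternatives, the flank, the fold, the amount added and the choice of peaks were varied one at a time. No paired analysis was possible because both samples of a group were pooled in 1 list and nothing was tested. Adding 0.5 kb changed no count.

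With the gene spans alone, 1 gene lost H2AK119ub from E18.5 to P1 (0 as reported), 2 lost H3K27me3 between the PRC1 groups at P6 (1), 2 lost it from P6 to P7 in PRC1cKO (0), and 4 of 25 calls arose between control lists (0). With flanks of 50 kb, 0 gained H2AK119ub from P1 to P6 (1).

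At a 1.5-fold limit, 2 lost H2AK119ub from E18.5 to P1, 2 lost H3K27me3 between the PRC1 groups at P6, 5 lost H3K27me3 (3) and 1 lost H2AK119ub (0) in PRC2cKO, 2 gained H3K27me3 from P6 to P7 in PRC1cKO (1), and 4 calls arose between controls. At a 3-fold limit, 1 gained H3K27me3 from E18.5 to P1 (2), 0 gained H2AK119ub from P1 to P6, 1 lost it from P6 to P7 (3), 1 lost H3K27me3 in PRC2cKO and 0 gained it from P6 to P7 in PRC1cKO.

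With the upper 50% of peaks by summed signal, 1 gained H3K27me3 and 1 lost H2AK119ub from E18.5 to P1, 2 gained H2AK119ub from P1 to P6, 2 lost H3K27me3 between the PRC1 groups at P6, 1 lost H2AK119ub in PRC2cKO, and 5 calls arose between controls. With lists trimmed to equal covered length, 1 gained and 1 lost H3K27me3 from E18.5 to P1, and 0 gained H2AK119ub from P1 to P6. From P6 to P7, 4 gained and 0 lost H2AK119ub (5.18 at Sfmbt2 and 3.91 at Slc38a4, opposite in sign to the reported change). In PRC2cKO 1 gained and 1 lost H3K27me3 (2.36 at Smoc1, opposite in sign). These opposite signs arose where the trim left the locus no peak in the longer list. Between controls 4 calls arose.

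The median percentage of the locus under both marks was 0 at E18.5 with gene spans alone, 4.22 with 50 kb flanks and 0 with the upper 50% of peaks (1.1 as reported). At P1 it was 8.01 with 50 kb flanks and 0 with the upper peaks (2). At P6 it was 3.6 with gene spans and 6 with the upper peaks (10.3), and at P7 5.41 with the upper peaks (10.6). In PRC2ctrl it was 2.12, 10.22 and 2.05 under these 3 settings (5.1), and in PRC2cKO 0 with the upper peaks (3). When a shared peak had to be covered over 50%, 8 of 39 PRC1ctrl P7 peaks were shared with PRC1cKO (14). The H3K27me3 gain of 4 genes from P6 to P7 in WT and the loss of 3 genes in PRC1cKO at P7 stayed within 1.5 times under all 7 alternatives, at 3 to 4 genes each.

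Depth is unknown, and the lists differ in how much of the genome they call, so a locus without a peak is a locus below the threshold of that list. There is 1 list per group, and no difference has a replicate check.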
